A study of Mus musculus with 6 samples.

Results

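The genes described here encode proteins of the small subunit (SSU) processome and of the pre-40S particle that follows it, the machinery that makes the small subunit of the ribosome. They were taken from a list of 44 gene names, each matched to 1 of the 54838 genes of a table of read counts, and all 44 had enough counts to be tested. The list holds 36 factors that act in the nucleolus and 8 that act on the pre-40S particle. All 44 were lower in the AG636 group than in the vehicle group, and 35 of them (79.5%) passed the test across all genes, where 11.0% of all genes tested were lower and passed.

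The counts come from I1DN, a murine AML that carries IDH1R132H, DNMT3AR882H and NrasG12D on a C57BL/6 background and was made by transducing fetal liver stem and progenitor cells with the mutant alleles. Leukemic cells were transplanted into sub-lethally irradiated congenic Ptprca mice. The leukemia co-expressed a fluorescent reporter, and the samples are described as sorted AML cells, a gate that would remove cells of the host, though the use of the reporter in this sort is not given in the sources used here. The AG636 group received AG636, an inhibitor of the pyrimidine synthesis enzyme DHODH, at 100 mg/kg b.i.d. by oral gavage, and the Vehicle group received vehicle (n = 3 in each). Both groups carry the same 3 alleles and the same transplant, and the leukemia was grown from cryopreserved cells of a diseased mouse, so the 6 samples share their origin. Cells were sorted from bone marrow and spleen for an immature phenotype. The study's legend for the RNA sequencing of these cells gives treatment for a day, and no label gives the duration. Its longer treatment of mice with this leukemia belongs to the tumor burden experiment. The comparison asks how the transcripts of leukemic cells change under DHODH inhibition.

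In the nucleolus, the SSU processome assembles on the leading end of the ribosomal RNA precursor while RNA polymerase I is still transcribing it. The UtpA and UtpB complexes bind first, the U3 small nucleolar RNP pairs with the precursor, and enzymes then fold, modify and cleave it until the pre-40S particle is released. Pre-40S factors escort the particle through the nuclear pore and hold it inactive in the cytoplasm until the last cleavage of the 18S rRNA. These genes are known for high expression in growing cells and are common targets of MYC.

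Libraries held between 4634963 and 7906589 counts. Values below are CPM, counts scaled to the TMM-adjusted library size, and since each library captured transcript ends they do not scale with gene length. Unless named otherwise, p-values come from the quasi-likelihood test of edgeR, adjusted by the Benjamini-Hochberg method over all 11092 genes tested, a gene "fell" where the adjusted p was under 0.05, and a log2 fold change is AG636 against Vehicle with its standard error (SE). The p-values set the difference between the groups against the spread within these 3 and 3 samples, which the test moderates across genes. All samples share their origin, so this spread does not cover differences between leukemias. In sorted bulk cells, fewer cells of a type and less RNA per cell cannot be told apart.

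Of the 44 genes, 35 fell and 0 rose with AG636. Over all genes tested, 11.0% fell and 10.3% rose (edgeR). Log2 fold changes of the 44 ran from -1.33 (*Rrp9*) to -0.12 (*Utp23*) with a median of -0.76, against a median of 0.03 over all genes tested. As a level, the AG636 mean was between 39.7% and 91.8% of the Vehicle mean with a median of 59.0%. The AG636 mean was under 50% of the Vehicle mean for 5 genes (*Rrp9*, *Wdr46*, *Nat10*, *Heatr1* and *Rrp12*) and between 50% and 60% for 19. The 3 AG636 libraries lay below all 3 Vehicle libraries for 40 of the 44 genes, as they did for 20.6% of all genes tested. The 4 genes with overlapping groups were *Nob1*, *Ngdn*, *Riok2* and *Utp23*. An exact permutation test of a single gene cannot give a two-sided p below 0.1 with 3 against 3. Under an adjusted p of 0.01, 19 of the 44 fell (edgeR), against 2.93% of all genes tested. All 44 stayed lower with AG636 in each of the 13 alternatives to the test, its scaling, filter and samples.

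**Figure D1:**
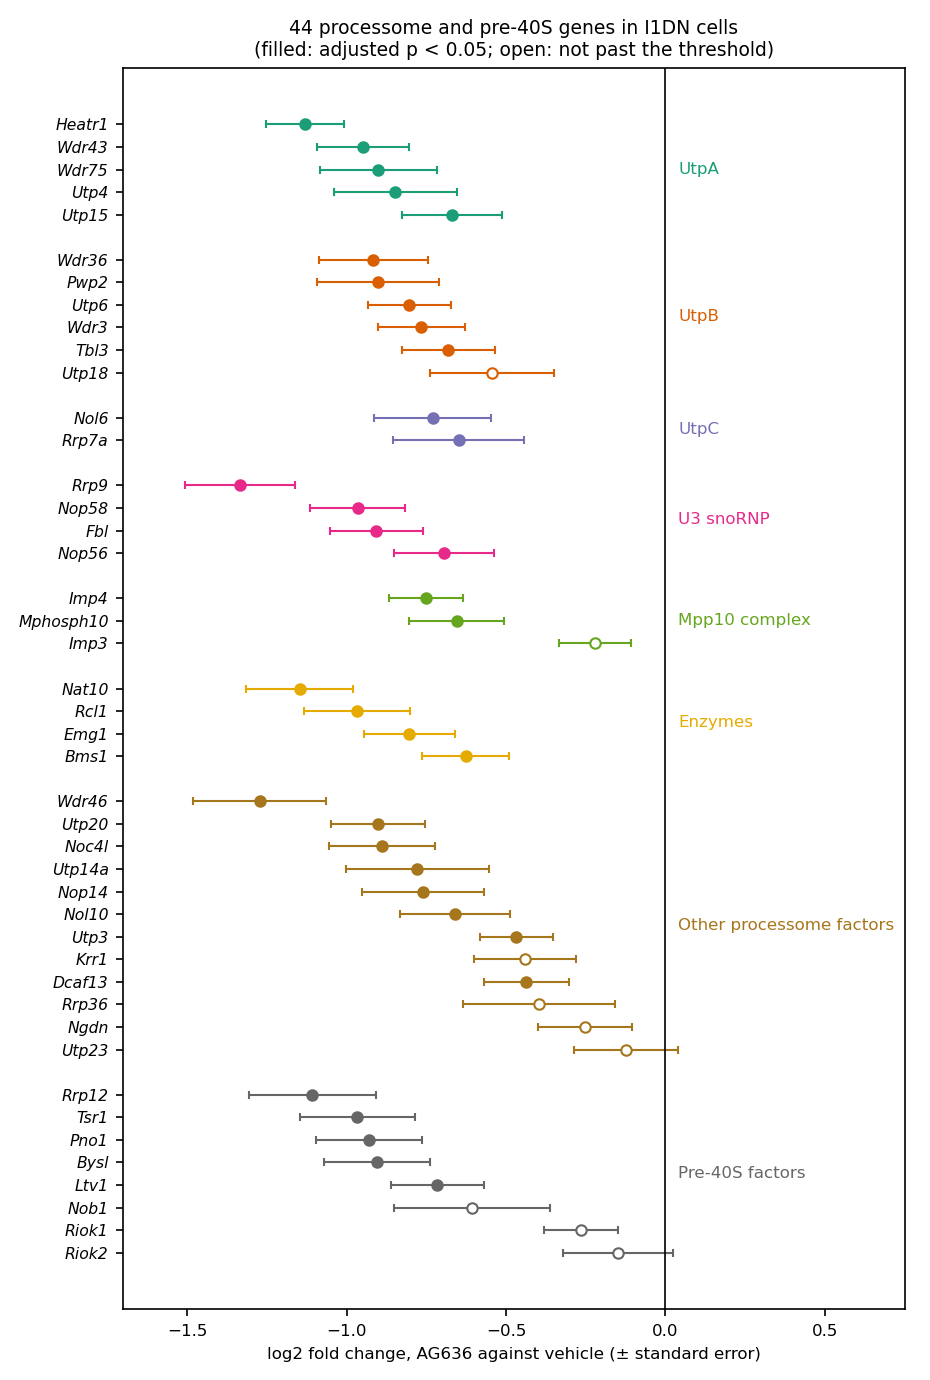
Log2 fold change of each of the 44 genes (x axis, AG636 against Vehicle, bars ± SE), grouped by role, with filled points for genes past an adjusted p of 0.05. Points run from -1.33 to -0.12, 35 are filled, and the open points include *Imp3*, *Riok1*, *Riok2* and *Utp23*.

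The UtpA complex, which binds the precursor first and is also tied to its transcription by RNA polymerase I, fell throughout. All 5 of its listed genes passed the test, with a median log2 fold change of -0.90. *Heatr1* (chr13:12395027-12440289 in mm10), the largest scaffold protein of UtpA, measured 159.8, 144 and 145 CPM in the Vehicle libraries and 65.6, 74.2 and 65.1 CPM in the AG636 libraries. *Wdr43*, a WD-repeat subunit, measured 544, 478 and 414 CPM with vehicle and 243, 287 and 214 CPM with AG636. The highest AG636 library of either gene was well under the lowest Vehicle library. The log2 fold change of *Heatr1* was -1.13 (SE 0.12, adjusted p = 0.00202 from edgeR), the lowest adjusted p of the 44 genes. That of *Wdr43* was -0.95 (SE 0.15, adjusted p = 0.00411 from edgeR). *Utp15*, another WD-repeat subunit, had the highest p of the complex, with 53.7, 46.8 and 51.6 CPM in the Vehicle libraries and 32.1, 36.1 and 27.4 CPM in the AG636 libraries. Its groups were apart too, at a log2 fold change of -0.67 (SE 0.16, adjusted p = 0.0169 from edgeR). *Wdr75* and *Utp4*, the remaining subunits, fell at log2 fold changes of -0.90 and -0.85. *Wdr75* ranged over 61.7 to 87.7 CPM with vehicle and 33.0 to 47.2 CPM with AG636, and *Utp4* over 91.9 to 123 and 43.98 to 73.4 CPM.

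In UtpB, a second early complex that joins the U3 RNP to the precursor, 5 of 6 genes fell and the median log2 fold change was -0.78. *Utp6* measured 80.2, 73.5 and 74.4 CPM with vehicle and 41.6, 41.2 and 47.8 CPM with AG636. *Wdr3* measured 169, 143 and 136 CPM with vehicle and 81.1, 99.0 and 83.8 CPM with AG636. For *Utp6* the libraries within each group were close together, with means of 76.0 ± 3.65 and 43.5 ± 3.66 CPM (SD, n = 3). The log2 fold changes were -0.80 for *Utp6* (SE 0.13, adjusted p = 0.00501 from edgeR) and -0.77 for *Wdr3* (SE 0.14, adjusted p = 0.00667 from edgeR). *Wdr36*, *Pwp2* and *Tbl3*, WD-repeat proteins of the same complex, fell at log2 fold changes of -0.92, -0.90 and -0.68. *Wdr36* ranged over 77.2 to 100.9 CPM with vehicle and 36.8 to 52.6 CPM with AG636, *Pwp2* over 49.3 to 71.9 and 25.7 to 36.9 CPM, and *Tbl3* over 47.2 to 53.5 and 28.7 to 34.0 CPM. The 3 genes shared the pattern of groups that do not touch. *Utp18* was the subunit that did not pass, with 41.2, 37.7 and 29.7 CPM in the Vehicle libraries and 28.5, 26.2 and 20.01 CPM in the AG636 libraries. Its lowest Vehicle library was just above its highest AG636 library, and the log2 fold change of -0.54 had a 95% confidence interval of -0.98 to -0.11 (adjusted p = 0.071 from edgeR). Both genes grouped here under UtpC fell, with a median log2 fold change of -0.69, while *Rrp36* is counted with the other factors below. *Nol6* measured 76.8, 75.6 and 65.8 CPM with vehicle and 47.8, 52.2 and 31.9 CPM with AG636, a log2 fold change of -0.73 (adjusted p = 0.0221 from edgeR). *Rrp7a* was low in every library, with 17.3, 22.0 and 17.3 CPM with vehicle and 10.8, 11.5 and 13.8 CPM with AG636. Its log2 fold change of -0.65 passed near the threshold (SE 0.20, adjusted p = 0.0477 from edgeR), and the call was lost in each of the 6 fits that left out a library.

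All 4 listed protein genes of the U3 RNP fell, and their median of -0.94 was the lowest of the 8 roles, although roles were not tested against each other. The U3 RNP is a box C/D RNP whose RNA pairs with the precursor to set up its early cleavages. *Rrp9* (chr9:106475963-106485424), the protein that distinguishes U3 from other box C/D RNPs, measured 69.5, 59.8 and 54.3 CPM with vehicle and 25.1, 27.6 and 20.2 CPM with AG636. The gap between the groups was wider than the spread within either. The means were 61.2 ± 7.70 and 24.3 ± 3.78 CPM (SD, n = 3), and the log2 fold change of -1.33 was the largest fall of the 44 (SE 0.17, adjusted p = 0.00271 from edgeR). *Nop58*, a scaffold shared by all box C/D RNPs, measured 614, 555 and 503 CPM with vehicle and 275, 343 and 238 CPM with AG636. *Nop56*, its paralog in the same scaffold, measured 336, 274 and 231 CPM with vehicle and 195, 174 and 151 CPM with AG636. Neither gene had overlapping groups, though the lowest Vehicle library of *Nop56* was closer to its AG636 libraries. Log2 fold changes were -0.97 for *Nop58* (SE 0.15, adjusted p = 0.00411 from edgeR) and -0.69 for *Nop56* (SE 0.16, adjusted p = 0.0151 from edgeR). *Fbl*, the methyltransferase of these RNPs, fell by 0.91 on the log2 scale, from 446, 499 and 415 CPM to 231, 290.1 and 205 CPM.

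The Mpp10 complex links the U3 RNA to the precursor, and its 3 genes spanned log2 fold changes from -0.75 to -0.22. *Imp4* measured 147, 134 and 136 CPM with vehicle and 78.6, 86.0 and 83.2 CPM with AG636. *Mphosph10*, the scaffold of the complex, measured 110.4, 88.0 and 83.2 CPM with vehicle and 60.5, 64.3 and 54.0 CPM with AG636. Both fell without overlap, at -0.75 for *Imp4* (SE 0.12, adjusted p = 0.00411) and -0.66 for *Mphosph10* (SE 0.15, adjusted p = 0.015) as log2 fold changes from edgeR. *Imp3* (chr9:56937475-56938398), a small protein related to ribosomal protein S4, measured 203, 189 and 182 CPM with vehicle and 171, 169 and 153 CPM with AG636. Its groups did not overlap either, but they lay close together and it did not pass, at a log2 fold change of -0.22 with a 95% confidence interval of -0.47 to 0.03 (adjusted p = 0.182 from edgeR).

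All 4 enzymes of the list fell, with a median log2 fold change of -0.89. *Nat10* (chr2:103721256-103761270), the acetyltransferase that modifies cytidines of 18S rRNA, measured 55.3, 49.3 and 53.9 CPM with vehicle and 21.9, 28.7 and 21.0 CPM with AG636. *Rcl1*, which partners the GTPase *Bms1*, measured 145, 137 and 109 CPM with vehicle and 57.6, 80.6 and 62.1 CPM with AG636. *Bms1* itself measured 207, 169 and 171 CPM with vehicle and 112, 134 and 109 CPM with AG636. For each of these 3 enzymes the highest AG636 library was below the lowest Vehicle library, by the widest margin relative to its level in *Nat10*. Log2 fold changes were -1.15 for *Nat10* (SE 0.17, adjusted p = 0.00383 from edgeR), -0.97 for *Rcl1* (SE 0.17, adjusted p = 0.00591 from edgeR) and -0.63 for *Bms1* (SE 0.14, adjusted p = 0.0132 from edgeR). *Emg1*, the methyltransferase of a pseudouridine in 18S rRNA, ranged over 189 to 244 CPM with vehicle and 106 to 135 CPM with AG636, a log2 fold change of -0.80 (SE 0.14, adjusted p = 0.0066 from edgeR).

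Among the 12 other processome factors, 8 fell and 4 did not pass, with a median log2 fold change of -0.56. *Wdr46* (chr17:33940660-33949697), a WD-repeat protein that helps build the processome, measured 48.3, 45.1 and 33.4 CPM with vehicle and 21.0, 17.5 and 14.2 CPM with AG636. *Utp20* (chr10:88746607-88826804), a very large protein of helical repeats, measured 54.4, 45.9 and 53.9 CPM with vehicle and 27.4, 27.6 and 27.4 CPM with AG636. The 3 AG636 libraries of *Utp20* were almost equal, while the Vehicle libraries were clearly higher. Log2 fold changes were -1.27 for *Wdr46* (SE 0.21, adjusted p = 0.00512 from edgeR) and -0.90 for *Utp20* (SE 0.15, adjusted p = 0.00501 from edgeR). *Noc4l* and *Nop14*, which form a complex in the processome, fell at log2 fold changes of -0.89 and -0.76, and *Utp14a*, the activator of the helicase that unwinds U3, at -0.78. *Noc4l* ranged over 137 to 185 CPM with vehicle and 74.2 to 107 CPM with AG636, *Nop14* over 80.2 to 117 and 45.7 to 70.9 CPM, and *Utp14a* over 31.3 to 38.2 and 14.5 to 27.0 CPM. *Nol10*, *Utp3* and *Dcaf13*, further nucleolar factors, fell at -0.66, -0.47 and -0.44. *Utp3* ranged over 151 to 174 CPM with vehicle and 113 to 122 CPM with AG636. *Utp23*, a protein with a nuclease-like fold, measured 32.4, 33.5 and 31.8 CPM with vehicle and 31.4, 25.4 and 32.8 CPM with AG636. The first and second AG636 libraries lay below the Vehicle libraries and the third within them, and the log2 fold change of -0.12 had a 95% confidence interval of -0.48 to 0.24 (adjusted p = 0.612 from edgeR). The KH-domain protein *Krr1* had a log2 fold change of -0.44 with an interval of -0.80 to -0.08 (adjusted p = 0.0754 from edgeR) and did not pass. Exons of *Krr1* overlap *Glipr1* on the opposite strand, which held 7114 counts in all against 1373 for *Krr1* and rose by 1.06 on the log2 scale. *Ngdn* and *Rrp36* did not pass either, at log2 fold changes of -0.25 (interval -0.58 to 0.07) and -0.40 (interval -0.92 to 0.13). The AG636 range of *Ngdn*, 86.1 to 121 CPM, reached into its Vehicle range of 112 to 133 CPM. *Rrp36* had the fewest counts of the 44, down to 28 in a library.

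Of the 8 pre-40S genes, 5 fell and 3 did not pass, and these 8 held both large and small changes, with a median log2 fold change of -0.81. *Rrp12* (chr19:41862852-41896153), which helps export pre-ribosomal particles, measured 61.2, 57.6 and 52.0 CPM with vehicle and 21.2, 34.8 and 23.2 CPM with AG636. *Pno1*, an RNA-binding protein at the cleavage site of the 18S precursor, measured 102, 88.2 and 80.4 CPM with vehicle and 49.5, 55.1 and 37.6 CPM with AG636. Groups of both genes were apart, and the second AG636 library was the highest of its group in each. Log2 fold changes were -1.11 for *Rrp12* (SE 0.20, adjusted p = 0.00667 from edgeR) and -0.93 for *Pno1* (SE 0.17, adjusted p = 0.00685 from edgeR). *Tsr1*, a protein with the fold of a GTPase, fell at a log2 fold change of -0.97, *Bysl* at -0.90 and *Ltv1* at -0.72, and all 3 encode proteins that ride on the particle until late in its maturation. *Tsr1* ranged over 89.9 to 98.6 CPM with vehicle and 38.1 to 62.9 CPM with AG636, *Bysl* over 69.6 to 94.5 and 36.4 to 49.1 CPM, and *Ltv1* over 68.1 to 82.2 and 40.02 to 50.3 CPM. The genes that did not pass included both RIO kinases, ATPases that release other factors from the particle. *Riok2* measured 45.1, 33.7 and 33.2 CPM with vehicle and 34.2, 36.1 and 30.8 CPM with AG636. Its groups overlapped, and the log2 fold change was -0.15 with a 95% confidence interval of -0.53 to 0.23 (adjusted p = 0.563 from edgeR). *Riok1* measured 112, 126 and 111 CPM with vehicle and 97.1, 97.5 and 96.3 CPM with AG636. The AG636 libraries of *Riok1* were almost equal and all below the Vehicle libraries, at a log2 fold change of -0.27 with an interval of -0.52 to -0.01 (adjusted p = 0.123 from edgeR). *Nob1*, the endonuclease that makes the last cut of 18S rRNA, varied widely within groups, with 66.1, 40.5 and 57.9 CPM with vehicle and 31.2, 48.9 and 27.7 CPM with AG636. The second AG636 library was above the second Vehicle library, so the groups overlapped, and the log2 fold change of -0.61 had an interval of -1.15 to -0.06 (adjusted p = 0.0999 from edgeR).

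**Figure D2:**
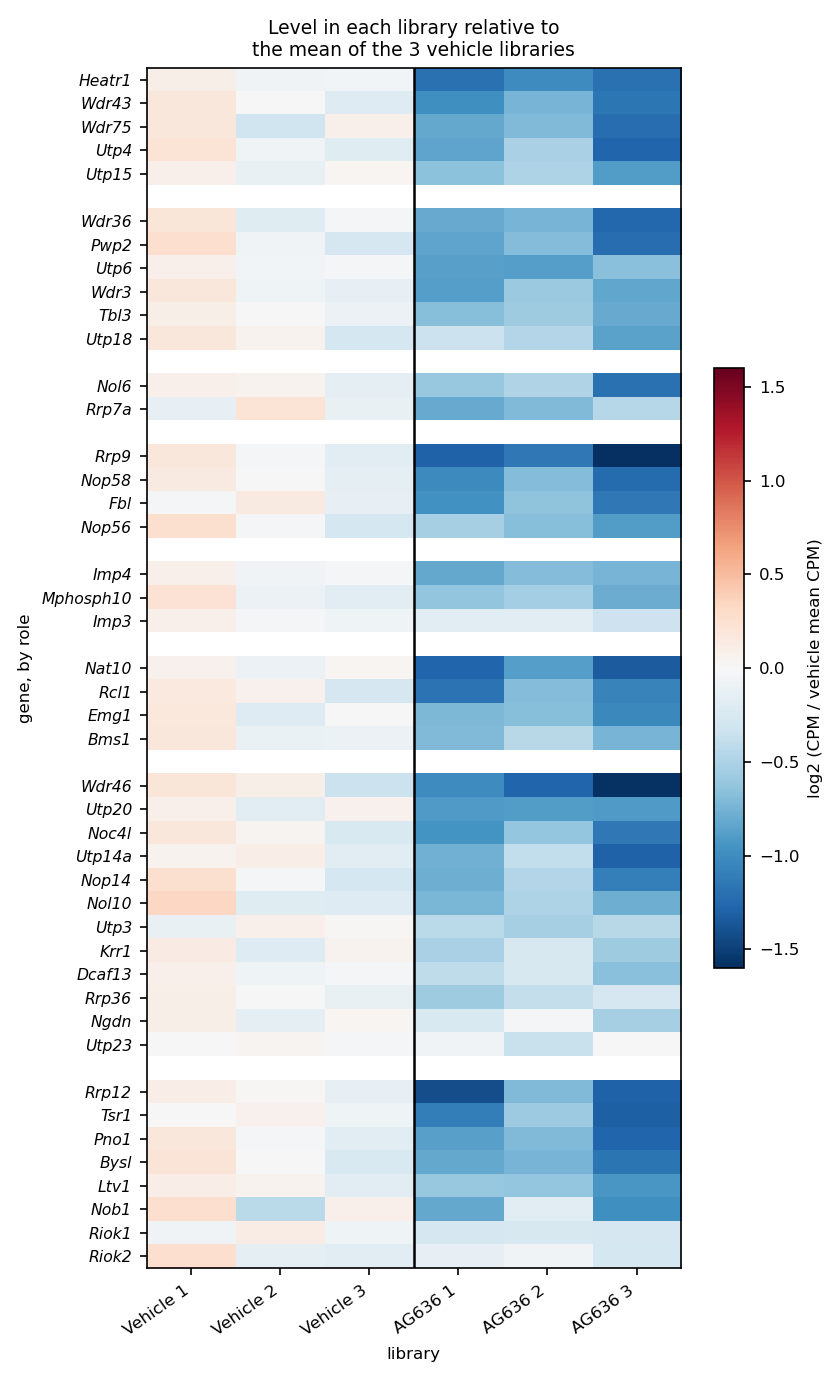
Level of each gene (rows, by role) in each of the 6 libraries (columns) as log2 of its CPM over the mean of the 3 Vehicle libraries, with blue for lower and red for higher values. The AG636 columns are blue for nearly all genes, darkest in the third AG636 library and palest in the second.

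The 44 genes moved together from library to library as well as between the groups. Their CPM summed to 5921, 5317 and 4964 in the Vehicle libraries and to 3183, 3595 and 2813 in the AG636 libraries. Relative to the Vehicle mean, the median gene stood at 0.14, -0.02 and -0.12 in the Vehicle libraries and at -0.77, -0.59 and -0.93 in the AG636 libraries, on the log2 scale. The third AG636 library was the lowest of its group for 35 of the 44 genes, and the second was the highest for 34. The first Vehicle library was the highest of its group for 37 genes. TMM scaling holds the median over all genes near the same level in every library, so that median says nothing of this order. Principal component 1 of all genes tested, with 58.6% of the variance, put the libraries in the same order as the median gene of the 44, at -49.7, -24.0 and -15.9 for Vehicle and 29.1, 19.4 and 41.2 for AG636, so the order is shared with the expression of genes at large. Without the third AG636 library 21 of the 44 genes passed, in place of 35, and the median log2 fold change was -0.69 (edgeR). Over all genes, 851 passed in that fit, in place of 2368.

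Some of the proteins work in pairs, and the ratio of 2 partners within a library does not depend on how libraries are scaled. The ratio of CPM is given for 8 pairs as a description, because the pairs were chosen after the values of single genes were known. An exact permutation test of the ratios gave no p below 0.1, the lowest possible with 3 against 3. The ratio of *Imp3* to *Imp4*, both in the Mpp10 complex, was 1.37, 1.41 and 1.34 in the Vehicle libraries and 2.17, 1.96 and 1.83 in the AG636 libraries. Every AG636 library was above every Vehicle library, a difference of 0.53 on the log2 scale, which restates the smaller change of *Imp3* given above. The ratio of *Rrp9* to *Fbl*, both in the U3 RNP, differed by -0.42 on the log2 scale, lower with AG636, and that of *Rcl1* to *Bms1* by -0.34, each without overlap. The other 5 pairs overlapped, with differences of 0.29 for *Nop56* to *Nop58*, 0.11 for *Rrp7a* to *Nol6*, 0.13 for *Nop14* to *Noc4l*, -0.31 for *Pno1* to *Nob1* and -0.12 for *Riok1* to *Riok2*.

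**Figure D3:**
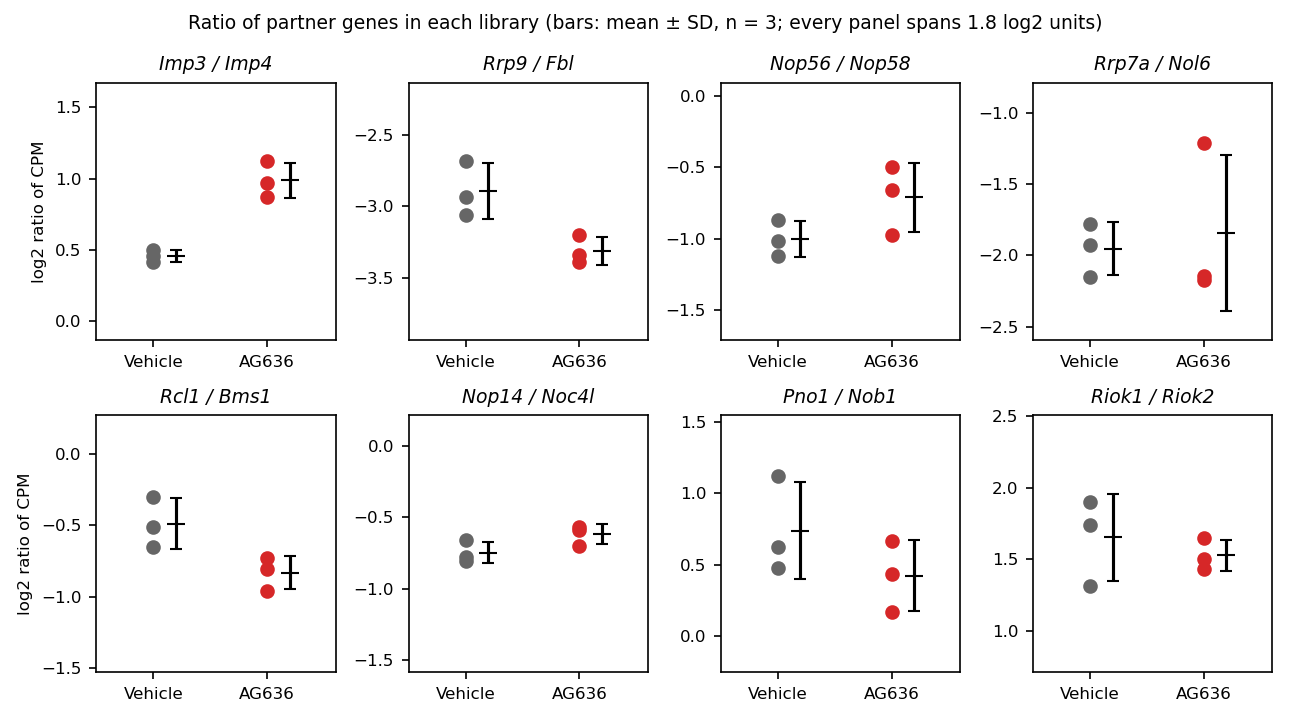
Log2 ratio of the CPM of 2 partner genes in each library (y axis, with the same span in every panel), for 8 pairs, with points for libraries and bars for mean ± SD (n = 3). Groups are apart for *Imp3* to *Imp4*, *Rrp9* to *Fbl* and *Rcl1* to *Bms1* and overlap in the other 5 panels.

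Promoters of the genes were searched for short motifs, with sequences from RefSeq (GRCm38.p6) that span 250 bases before to 50 after the start site. The table held 36 of the 44 genes (*Fbl*, *Nol6*, *Rrp12*, *Wdr36*, *Dcaf13*, *Utp23*, *Tbl3* and *Utp6* were not matched). The E-box CACGTG, the core that MYC and other helix-loop-helix factors bind, was in 10 of the 36 promoters (27.8%), against 7.24% of all 27025 promoters and 10.7% of the 8424 promoters of genes tested. The ETS motif CCGGAAG was in 14 (38.9%, against 9.12% and 20.8%) and the YY1 motif GCCATNTT in 5 (13.9%, against 6.23% and 9.85%), both strands searched. Matches of different motifs did not overlap each other, while the pair of ETS matches in *Wdr46* did. Median GC content was 58.0% for the 36 promoters, 52.7% for all and 61.0% for genes tested. Of the 10 E-boxes, 8 lay within 40 bases of the start site and 6 lay downstream of it. The median log2 fold change was -0.87 for the 10 genes with an E-box and -0.73 for the 26 without. The lines below show the E-box, in capitals with 6 bases on each side, for the 5 E-box genes with the largest falls and for *Utp18*, the only E-box gene that did not pass, as the gene's own strand reads from 5′ to 3′.
Wdr46, 12 bases before the start (chr17:33940705-33940722, plus strand): gtttcgCACGTGgatcgt
Tsr1 (chr11:74898098-74898115, plus strand): ggtgcaCACGTGgactgc
Wdr43 (chr17:71616226-71616243, plus strand): ggcgaaCACGTGgctgcc
Pno1 (chr11:17211541-17211558, minus strand): accacgCACGTGttcctc
Utp20 (chr10:88826766-88826783, minus strand): taactaCACGTGaggaaa
Utp18 (chr11:93885775-93885792, minus strand): gccggtCACGTGgcttgc

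A match is a description of the letters, not a site shown to be bound. The promoters of *Wdr46*, *Utp20* and *Imp4* held a YY1 motif beside their E-box, shown in capitals with the same flanks because these 3 genes carry both motifs. In *Wdr46* and *Utp20* the motif reads on the strand opposite to the gene.
Wdr46 (chr17:33940599-33940618, plus strand): tcacttAACATGGCgccgga
Utp20 (chr10:88826793-88826812, minus strand): ctttccAACATGGCggcgcc
Imp4 (chr1:34439777-34439796, plus strand): ccattcGCCATCTTaagatg

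All 3 genes with both motifs fell, at log2 fold changes of -1.27 (*Wdr46*), -0.90 (*Utp20*) and -0.75 (*Imp4*), but so did 28 of the 36 genes with a promoter. Of the other genes with a YY1 motif, *Emg1* fell (-0.80) and *Nob1* did not pass (-0.61). The E-boxes of *Wdr46* and *Utp20* are those of the lines above. Motif shares were not tested between the lists.

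Other lists of ribosome genes had negative medians as well. In a list of 42 further genes of the small subunit pathway (helicases, late enzymes, nucleolar chaperones, with *Slx9* of the 43 names not matched), 40 were lower and 22 fell, 0 rose, and the median log2 fold change was -0.41. *Snu13*, which binds the core of the U3 RNA, measured 513, 475 and 457 CPM with vehicle and 272, 271 and 240.5 CPM with AG636 (log2 fold change -0.88, adjusted p = 0.00245 from edgeR). The nucleolar proteins *Mybbp1a* and *Nolc1* fell at log2 fold changes of -1.04 and -1.02. *Abt1* and *Riok3* were the only 2 above zero, at 0.18 (adjusted p = 0.675) and 0.03 (adjusted p = 0.873) from edgeR. *Riok3* is the third RIO kinase, and none of the 3 kinases passed. Of 39 assembly factors of the large subunit, all 39 were lower and 26 fell, with a median of -0.65. Of the 34 proteins of the finished small subunit, 33 were lower and 11 fell, with a median of -0.26. Over all 11092 genes tested, 5291 were lower and 11.0% fell (edgeR). The lists were not tested against each other.

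**Figure D4:**
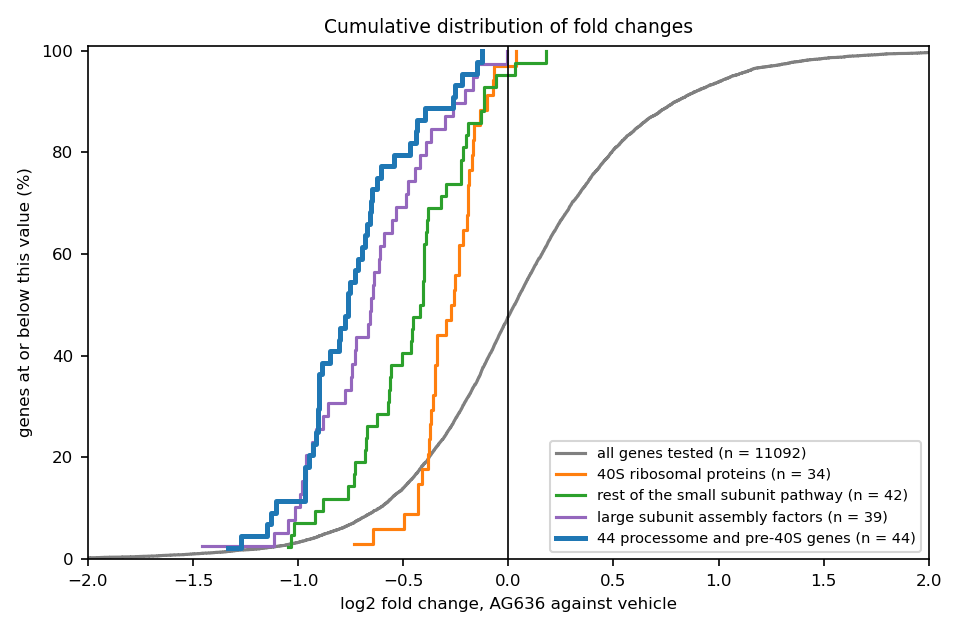
Cumulative share of genes (y axis, %) at or below each log2 fold change (x axis, AG636 against Vehicle) for the 44 genes, 3 other ribosome lists and all 11092 genes tested. The medians are -0.76 for the 44 genes, -0.65 for large subunit assembly, -0.41 for the rest of the small subunit pathway, -0.26 for small subunit proteins and 0.03 for all genes.

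Other cell types' markers also differed between the groups. Summed CPM of 10 neutrophil markers ran from 1049 to 2394 in the Vehicle libraries and from 2929 to 5948 in the AG636 libraries, and 8 of the 10 rose (edgeR). *Itgam*, which encodes the CD11b that the sort selected against, measured 12.1, 18.3 and 27.0 CPM with vehicle and 60.1, 31.3 and 41.2 CPM with AG636. *Kit*, the marker selected for, measured 43.1, 31.8 and 41.0 CPM with vehicle and 46.3, 37.3 and 44.7 CPM with AG636, and its groups overlapped. Of 8 immature myeloid markers 7 had enough counts to be tested and 0 were called (summed CPM 2441 to 4946 with vehicle and 1824 to 5154 with AG636). Of 8 monocyte and macrophage markers 6 were tested and 2 rose (84.5 to 127 and 179 to 252 CPM), and of 6 mast cell and basophil markers 5 were tested and 1 rose (316 to 555 and 442 to 1031 CPM). Summed CPM of the erythroid markers ran from 1693 to 4772 with vehicle and from 1966 to 3274 with AG636, and *Klf1*, an erythroid transcription factor, fell. *Klf1* was highest in the first Vehicle library, at 228, 124 and 102 CPM with vehicle and 80.9, 78.4 and 53.2 CPM with AG636, the library that was highest of its group for most of the 44 genes. Of 8 lymphoid markers only 2 were tested, and 0 were called (199 to 342 and 271 to 512 CPM, carried by *Nkg7*), and *Cd79a*, *Ms4a1* and *Cd3e* were at or near 0. Bulk counts cannot tell whether other cells or the leukemic cells carried these transcripts. The part of either in the fall of the 44 genes was not tested.

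Reads in exon bases shared with a gene on the opposite strand cannot be traced to either gene where counting ignores strand. The strand setting is not given in the sources used here. For 10 of the 44 genes an overlapping gene held at least 5% of the member's counts, the largest for *Bysl* (*Ccnd3*, 14954 counts against 2145), *Krr1* and *Rrp7a* (*Serhl*, 1739 against 528). Of the 34 genes without such a neighbour, 26 fell. The neighbour's counts are those of the whole gene, whatever the length of the overlap, and *Nop56* and *Idh3b* share only 5 bases. *Ccnd3* had a log2 fold change of -0.06 and *Serhl* of 0.38, and neither passed.

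**Figure D5:**
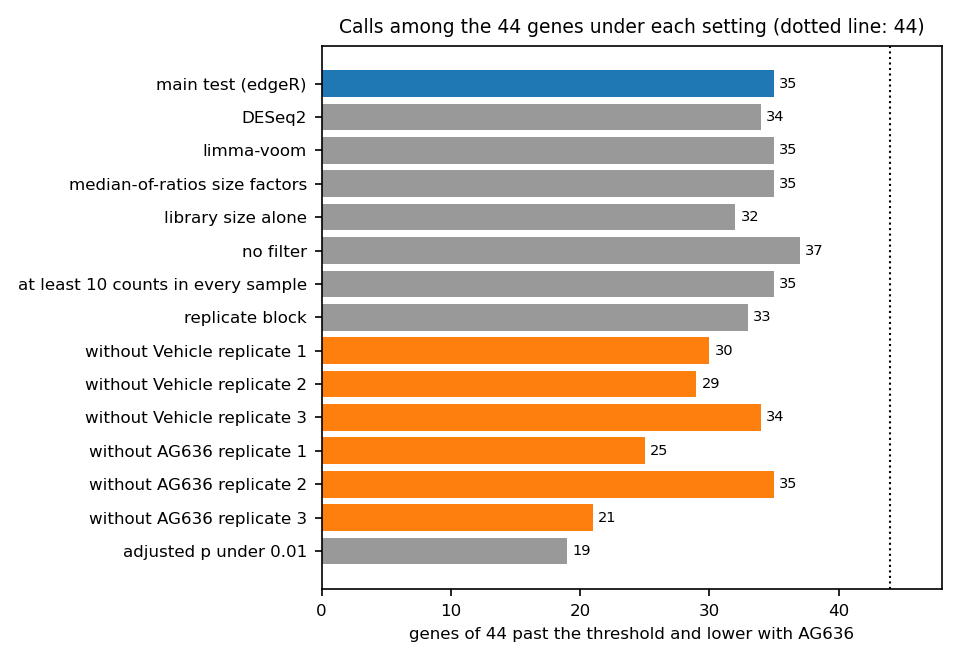
Number of the 44 genes that fell (x axis) under the test used here and under each alternative setting (y axis), with orange bars for fits that leave out a library. Counts run from 19 under an adjusted p of 0.01 and 21 without the third AG636 library to 37 without a filter, against 35 in the test used here.

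The calls held most firmly for 21 genes, which passed in each of the 6 fits without a library and in every other alternative at an adjusted p of 0.05. They include *Heatr1*, *Wdr43*, *Utp6*, *Wdr3*, *Rrp9*, *Nop58*, *Fbl*, *Imp4*, *Nat10*, *Rcl1*, *Utp20*, *Wdr46*, *Rrp12* and *Pno1*. The other 14 lost the call in at least 1 of the 6 fits, and all 14 did so without the third AG636 library. Of the genes that did not pass, *Nob1* and *Utp18* passed in some alternatives and the other 7 in none.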

How the data were processed

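RNA sequencing of sorted I1DN cells from 3 Vehicle and 3 AG636 mice was re-analysed. The authors deposited raw counts, the reads assigned to each gene, without normalization, beside a gene length that was not used in any test (other unit, bases, per the file headers). Libraries were made with the QuantSeq 3' kit, and per the submitters' processing notes reads were trimmed with cutadapt, mapped to GRCm38 (mm10) with HISAT2 2.0.4 and counted with featureCounts. The annotation release, strand setting and handling of reads with several positions are not given in the sources used here. GENCODE gave symbols to 99.79% of 54838 genes.

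Software was R 4.3.3, edgeR 4.0.16, limma 3.58.1 and DESeq2 1.42.0. Genes were kept by filterByExpr (minimum count 10, minimum total 15), libraries were scaled with TMM, and AG636 was compared with Vehicle by the quasi-likelihood test of edgeR at a Benjamini-Hochberg adjusted p under 0.05. The SE is the size of the log2 fold change over the square root of F. Samples were grouped by their labels, and 0 sample columns were left unused. Libraries of a group differed by more than sampling noise (chi-square per degree of freedom at least 6.67). The test was tried on data with known changes. A floor of 3 counts lies at 0.392 to 0.637 CPM, which covers counting error only.

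The genes, roles, other lists and markers were chosen with earlier results of these data known. Values in every library are given for the 2 genes with the lowest p and the 1 with the highest p of each role (for roles of 3 or fewer, all), plus *Fbl*, *Riok1* and *Nob1*, added after their values were seen. Of the further pathway genes, the 3 with the lowest p in each direction are named. Alternatives were DESeq2, limma-voom, median-of-ratios size factors, library size alone, the replicate number as a block, a filter that asks for 10 counts in all 6 samples, no filter, an adjusted p under 0.01 and leaving out each library. Some single marker genes are not reported here.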

Additional observations from a re-analysis of the deposited data

How the results depend on the processing

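All 44 genes kept a negative log2 fold change under the 13 alternatives in which each gene was refitted, and 0 rose under any. The number that fell was 34 with DESeq2, 35 with limma-voom and with median-of-ratios size factors, 32 with library size alone, 37 without a filter and 35 with at least 10 counts in every sample, against 35. It was 19 at an adjusted p of 0.01 and ran from 21 to 35 when each library was left out, with 21 without the third AG636 library. The median log2 fold change of the 44 ran from -0.79 to -0.67 over the alternatives with all libraries and from -0.87 to -0.69 when each library was left out. Over all genes, 2368 passed, 556 did at an adjusted p of 0.01, and between 851 and 2311 did when each library was left out: 1225 without the first and 1192 without the second Vehicle library, and 1235 without the first and 851 without the third AG636 library, but 2311 without the third Vehicle and 2245 without the second AG636 library. The causes were not tested. With library size alone 1483 genes rose, against 1146, and the median log2 fold change of all genes was 0.12, against 0.03. Same-numbered samples are different mice, and their deviations from the group means correlated at -0.06, -0.18 and 0.22. Samples with different numbers correlated at -0.38 to 0.36, so these values cannot show whether the numbers mark a shared batch. With a replicate block 33 of the 44 and 1960 genes passed, and the median was -0.76. *Rrp7a* lost its call in 6 of the 6 fits that left out a library, *Dcaf13* in 5, and *Utp14a* and *Nop14* in 4 each. Depth limits the lowest genes most: *Rrp36* held as few as 28 counts in a library.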
